A study of Oryza sativa with 20 samples.

Results

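The first hours of CRL1 induction were followed in stem bases of rice seedlings of the cultivar Taichung 65 that carried the crl1 (crown rootless 1) mutation. The 6 arrays compared came from 3 independent lines transformed with pINDEX2-CRL1, each sampled once after mock treatment and once after 10 µM dexamethasone, both at 4 h, among 20 arrays in the series. Every one of these plants was a crl1 mutant, mock groups included. Mock treatment was ethanol, seedlings were 8 days old, and each array held RNA from pooled stem bases of 1 line. The labels give each line as homozygous and of a single insertion locus, and give a capacity to form crown roots after dexamethasone as one ground for choosing it. At the same time point, 2 control lines of the crl1 mutant served for comparison, an untransformed one (control line 1) and one with the empty pINDEX2 plasmid (control line 2), each with 1 mock and 1 dexamethasone array. The same 3 CRL1 lines were also sampled at 8 h in both treatments.

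CRL1 belongs to the LOB-domain family of plant transcription factors and acts downstream of auxin signalling at the start of crown root formation. Crown roots arise from the stem base, where cells next to the vascular tissue divide to found a primordium that later organises a quiescent centre and a root cap. pINDEX2 places a gene under a promoter driven by a glucocorticoid-responsive activator, so dexamethasone starts transcription of the transgene rather than releasing a stored protein. Direct and indirect effects of CRL1 cannot be told apart on these arrays.

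No probe set was matched to CRL1, so the level of the transgene was not checked on the arrays. The labels' protocols say that its induction was checked by northern blot. Of 57258 probe sets that are no array controls, 32836 were bright enough to be tested, and those paired with exactly 1 gene stood for 16517 genes. Median signals of the 6 arrays lay between 10.1 and 11.5 after the authors' scaling, and precision is limited by how few arrays there were. Values called changes are log2 differences of dexamethasone minus mock within a line, averaged over lines with a standard error (SE), on the scale log2(signal + 1.7). That offset makes changes of dim transcripts smaller than the ratio of their signals. A change was called where the Benjamini-Hochberg adjusted p of limma's moderated test, with line as a block, was under 0.05.

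After 4 h of dexamethasone, 296 probe sets were called higher in the CRL1 lines, which is 0.901% of those tested, and 58 were called lower, which is 0.177%. The higher ones covered 228 genes, of which 44 carried a gene name and 184 only a LOC number, and 55 of them had no listed gene. The lower ones covered 39 genes, 7 of them named, and 19 had no listed gene. Among the 296, the change was at least 2-fold in 209, at least 4-fold in 74 and at least 8-fold in 24. Falls were smaller, with 28 of 58 at least 2-fold and 2 at least 4-fold. The median change was 1.3 for the higher and -0.97 for the lower probe sets, against -0.02 over all tested.

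**Figure D1:**
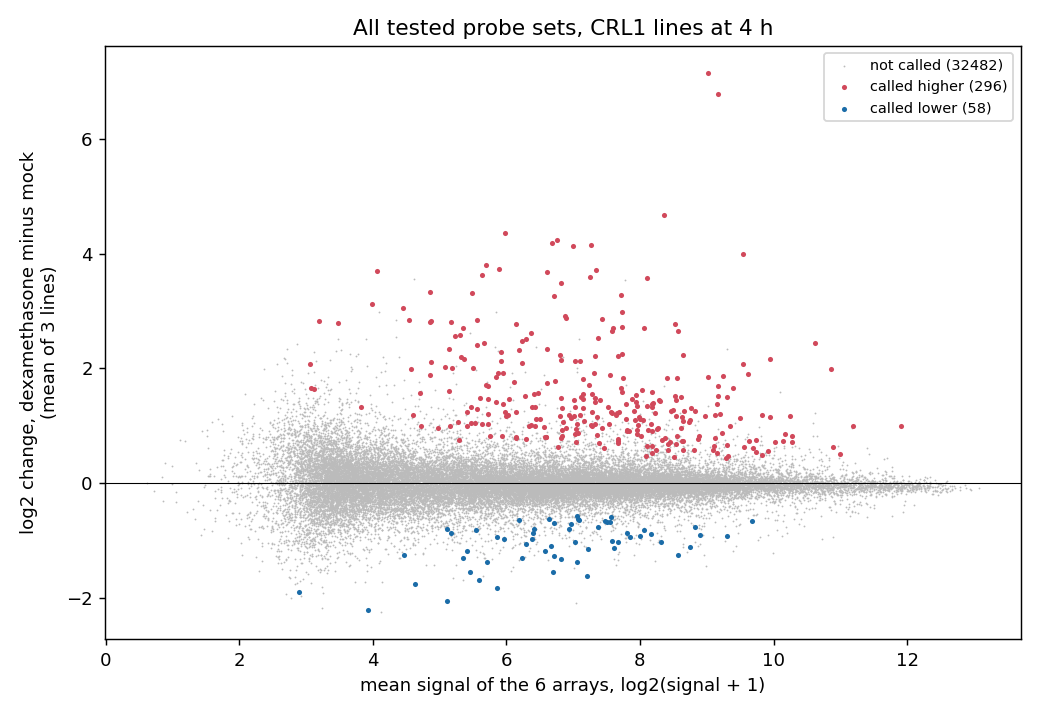
Log2 change at 4 h (mean of 3 CRL1 lines, dexamethasone minus mock) against the log2 of the mean signal of the 6 arrays plus 1, 1 point per tested probe set. The 296 called higher reach 7.15 and the 58 called lower reach -2.22; grey points are the rest.

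All 354 called probe sets (1.08% of those tested) moved the same way in all 3 lines, as 4725 of all tested did upwards and 5586 downwards. The median change of the 296 was 1.29 in line 1, 1.45 in line 2 and 1.13 in line 3. Line 3 had the smallest change of the 3 lines in 146 of the 296, line 1 in 93 and line 2 in 57. Signals after dexamethasone lay above every mock signal in 294 of the 296, where 6.44% of all tested probe sets were arranged this way. For 57 of the 58 lower ones the dexamethasone signals lay below every mock signal, where 7.5% of all tested were. Since the test chose these probe sets by the same values, their shared direction and the 294 and 57 describe them and support nothing further.

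The control lines received the same dexamethasone without an inducible CRL1. In the control lines 0 of 32836 probe sets were called at 4 h by limma, and 1563 had an unadjusted p under 0.05. The probe sets chosen in the CRL1 lines had median changes in the control lines of 0.12 for the 296 higher and -0.34 for the 58 lower ones. That choice used the changes in the CRL1 lines, so medians nearer to 0 in the control lines support nothing further. Of the 296, 123 were higher after dexamethasone in both control lines, and 15 were at least 2-fold higher in the control mean without being called there. Of the 58, 43 were lower after dexamethasone in both control lines. Matching shares over all tested probe sets were not counted, so the 123, 15 and 43 describe these probe sets only. The difference between the responses of CRL1 and control lines was itself called for 3 probe sets (0.00914%), all larger in the CRL1 lines, and 1397 had an unadjusted p under 0.05 for it. For all other changes below, a response particular to the CRL1 lines was not shown.

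**Figure D2:**
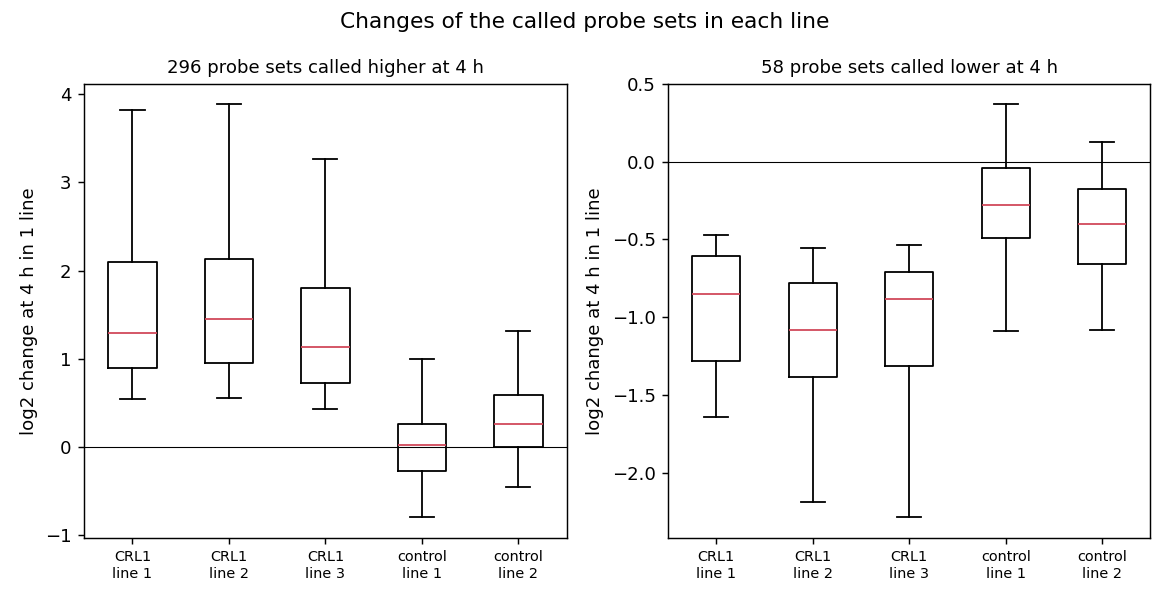
Log2 change at 4 h within each line for the 296 probe sets called higher (left) and the 58 called lower (right). Boxes span the quartiles, red lines are medians and whiskers the 5th to 95th percentiles over probe sets. The 2 control lines sit nearer to 0 than the 3 CRL1 lines. The probe sets were chosen by their changes in the CRL1 lines, so this supports nothing further.

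The largest of the 3 differences belonged to the probe set OsAffx.24980.1.S1_at, for which no gene is listed. Whether the transcript that it measures is that of CRL1 itself was not tested. The probe set had mock signals of 8.5, 9.9 and 4.7 in CRL1 lines 1, 2 and 3, and 1623.2, 1325.6 and 469.1 after dexamethasone. All 3 lines went from below the mean array median of 10.8 to bright signals, without overlap. The change was 6.78 ± 0.42 (SE, 3 lines; adjusted p = 5.87e-06), where the control lines went from 13.1 to 5.9 and from 26.4 to 7.0. CRL1 and control responses differed by 8.11 ± 0.66 (adjusted p = 0.00023), and this difference was also called whichever single line, CRL1 or control, was left out.

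LOC4332560, a gene without another name here, was the brightest of the 3. It gave 604.8, 381.0 and 486.5 in the mock arrays of lines 1 to 3 and 2513.5, 3077.8 and 2349.3 after dexamethasone. The lowest dexamethasone signal was several times the highest mock signal. Its change was 2.44 ± 0.19 (adjusted p = 4e-05), against 0.11 ± 0.24 in the control lines. The difference of 2.33 ± 0.31 had an adjusted p of 0.0392, which ranged from 0.0569 to 0.632 when 1 line was left out, so that call rested on all 5 lines.

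The third was proT, a proline transporter gene. Signals were 149.9, 130.9 and 149.8 in mock and 475.6, 469.5 and 361.9 after dexamethasone. The 2 sets of 3 did not overlap, and the control lines stayed between 145.5 and 150.8. Its change was 1.58 ± 0.14 (adjusted p = 7.48e-05). The responses differed by 1.6 ± 0.22 (adjusted p = 0.0453), which became 0.124 without the line block, 0.0568 after quantile normalization and 0.00495 to 0.77 when 1 line was left out. Among the 99 measured genes of nutrient and metabolite transporters, proT was the one called higher at 4 h, a share of 1.01% where 1.34% of all genes tested were. None was called lower, and the median was -0.02.

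**Figure D3:**
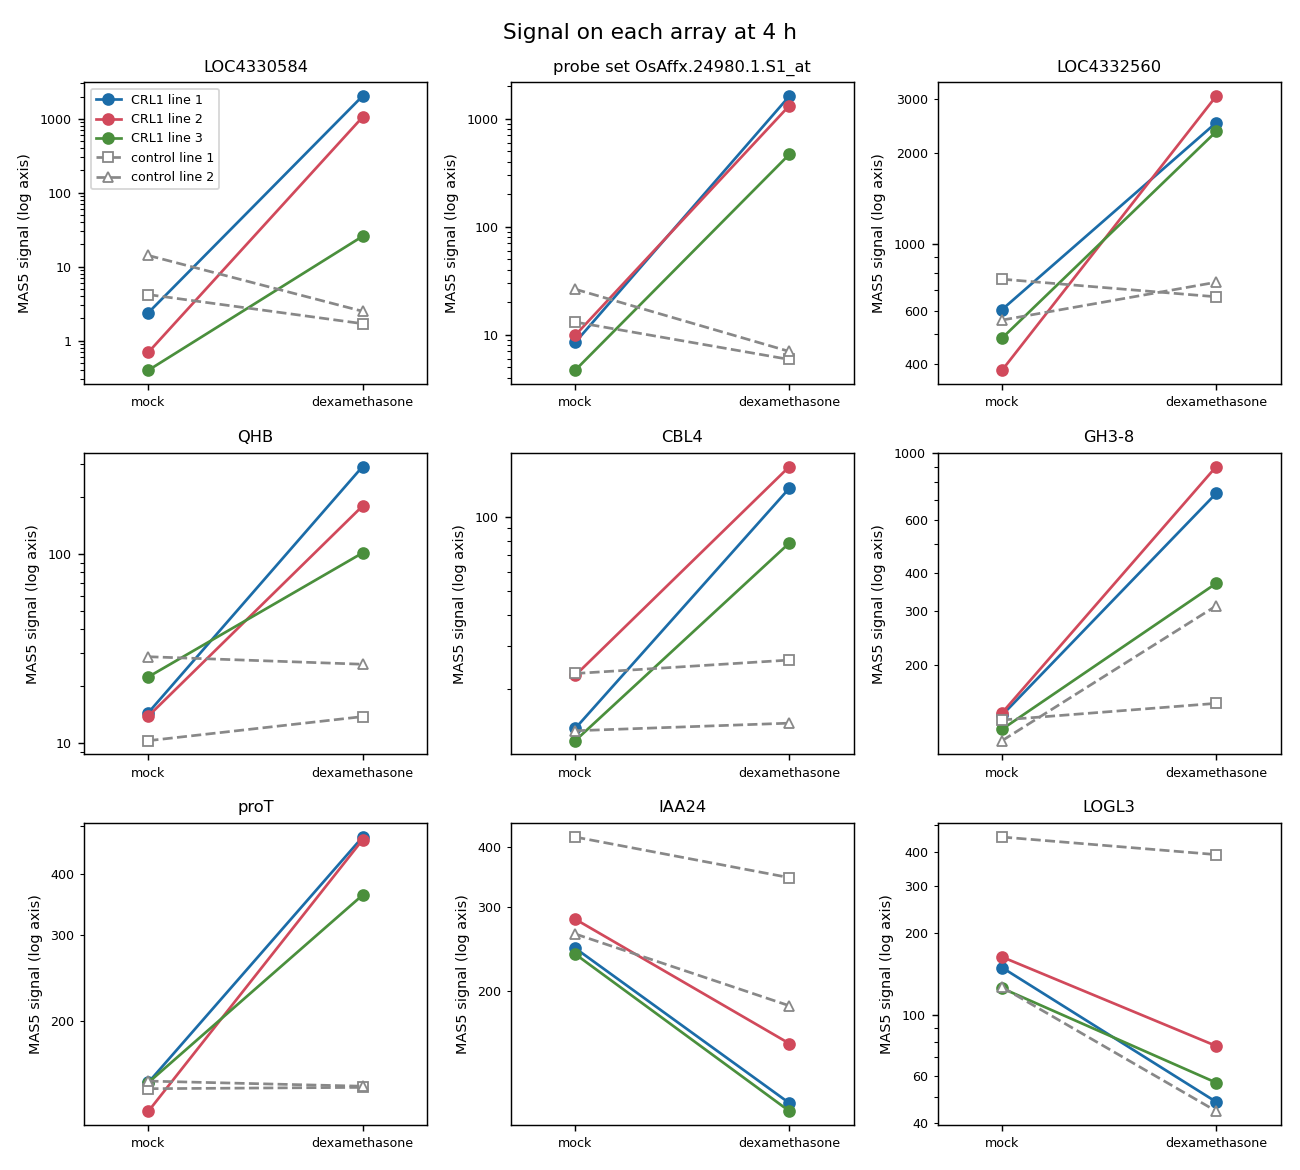
MAS5 signal (log axis, each panel with its own range) in mock and dexamethasone arrays at 4 h, with a line joining the 2 arrays of each plant line. Filled points are the 3 CRL1 lines and open points the 2 control lines; proT and LOC4332560 part from the control lines, while for LOGL3 and GH3-8 control line 2 went the same way as the CRL1 lines.

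The homeobox gene QHB, which marks the quiescent centre of the rice root and takes part in keeping it, was among the named genes with the largest rises. QHB signals were 14.5, 13.9 and 22.4 after mock and 289.4, 179.1 and 101.2 after dexamethasone in lines 1, 2 and 3. Line 1 responded most and line 3 least, and the groups did not overlap. The change was 3.27 ± 0.34 (adjusted p = 0.000289), and the control lines gave 0.12 ± 0.42. CRL1 and control responses differed by 3.14 ± 0.54 with an adjusted p of 0.0679, which did not pass. At 8 h QHB stood at 3.52 ± 0.34, and the 8 h and 4 h changes differed by 0.25 ± 0.48 (adjusted p = 0.932).

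QHB was 1 of 10 measured crown root regulators, of which 1 was called higher and 1 lower at 4 h, where 1.34% and 0.224% of all genes tested were. The list had a median change of -0.33, against -0.36 in the control lines. RR2, a type A response regulator that dampens cytokinin signalling, fell by 0.71 ± 0.15 on the log2 scale (adjusted p = 0.0432). Its signals were 139.0, 111.3 and 138.5 after mock and 76.7, 69.0 and 91.1 after dexamethasone, and all 3 lines contributed. Dexamethasone left the control lines at 71.4 and 113.0, from 96.8 and 122.1.

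WOX11, a homeobox gene that promotes the emergence and growth of crown roots, did not pass the test, at -0.91 ± 0.22 (adjusted p = 0.0702). Its signals of 79.4, 131.2 and 97.1 in mock and 62.5, 47.6 and 48.5 after dexamethasone did not overlap. The homeodomain leucine zipper gene hox14 was at 1.7 ± 0.6 (adjusted p = 0.303), from 2.1, 9.5 and 9.6 to 31.4, 53.1 and 7.4, so line 3 did not share the direction of the others. By 8 h both were called, WOX11 at -1.28 ± 0.22 and hox14 at 4.66 ± 0.6, but neither difference from 4 h was called (adjusted p = 0.812 and 0.237). The other members lay between -0.74 and 0.4 with adjusted p of 0.202 or more. They were RR1, the cytokinin oxidase gene CKX4, the Aux/IAA genes IAA13 and IAA23, and SHR1 and SCR1, which pattern the root ground tissue.

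Homeobox genes as a family had 3 of 40 measured members called higher, against 1.34% of all genes tested. The family had 1 called lower, against 0.224%, and a median change of 0.05. Roc4, of the class IV homeodomain leucine zipper group known for roles in the epidermis, rose by 1.92 ± 0.31 (adjusted p = 0.00653). Its mock signals of 18.9, 25.2 and 25.3 became 84.6, 106.6 and 84.8. Hox13, of the class I group, rose by 1.49 ± 0.19 (adjusted p = 0.00141), from 195.7, 231.5 and 187.2 to 510.4, 575.3 and 655.1. In both genes the 3 lines were close to each other and clear of the mock range. Of the other transcription factor families, 4 of 148 were called higher, which is 2.7% against 1.34% of all genes, and none was called lower. The 4 were the CCCH zinc finger genes C3H50 (0.78 ± 0.15) and C3H24 (0.66 ± 0.14), the heat shock factor gene HSF04 (0.82 ± 0.17) and the MYB gene MYBS2 (0.54 ± 0.11). At 8 h C3H50, C3H24 and HSF04 were at 0.43 ± 0.15, 0.19 ± 0.14 and 0.55 ± 0.17 and were not called (adjusted p = 0.0829, 0.487 and 0.0522). Their 8 h changes did not differ from 4 h by the test of that difference (adjusted p = 0.683, 0.503 and 0.822).

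Few auxin genes were called. GH3-8 encodes an enzyme that joins the auxin indole-3-acetic acid to amino acids and so lowers free auxin, and its transcript rose by 2.23 ± 0.34 (adjusted p = 0.00462). The mock signals of 136.2, 138.7 and 122.4 became 736.0, 902.0 and 371.2 after dexamethasone. No mock and dexamethasone signals overlapped in the CRL1 lines, but control line 2 also went from 112.2 to 312.8. The 2 responses differed by 1.41 ± 0.54 with an adjusted p of 1. It was the one called among 9 measured GH3 and SAUR genes, where 1.34% of all genes tested were called higher.

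The products of Aux/IAA genes repress auxin response factors until auxin triggers their breakdown. Of these genes 2 of 25 were called lower, where 0.224% of all genes tested were, and none was called higher, where 1.34% were. IAA24 went from 245.3, 282.2 and 238.4 to 116.1, 154.8 and 111.7, a fall in each line, and fell by 1.00 ± 0.19 (adjusted p = 0.016). IAA15 went from 933.7, 1051.9 and 1024.0 to 650.2, 631.2 and 618.2, a fall of about a like size in each line, and fell by 0.66 ± 0.13 (adjusted p = 0.0224). Both were also lower after dexamethasone in the 2 control lines, at -0.39 ± 0.23 and -0.46 ± 0.16, where they were not called. IAA26 was higher in all 3 CRL1 lines, at 2.98 ± 0.69, from dim mock signals of 1.2, 4.3 and 0.9. IAA31 was lower in all 3, at -0.93 ± 0.22. Neither passed (adjusted p = 0.0595 and 0.0612). The Aux/IAA median was -0.14 in the CRL1 lines and -0.2 in the control lines. None of 17 auxin response factor genes and none of 7 genes of auxin transport and synthesis was called, with medians of -0.03 and -0.36.

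In the cytokinin list 2 of 30 members were called lower, RR2 and LOGL3, where 0.224% of all genes tested were, and none was called higher. The cytokinin oxidase gene CKX5 was higher in all 3 lines, at 1.64 ± 0.47, but did not pass (adjusted p = 0.146). LOGL3, of the family whose enzymes release active cytokinins from their nucleotides, was at 149.7, 163.8 and 125.7 in mock and 48.0, 77.1 and 56.5 after dexamethasone. It fell by 1.27 ± 0.27 (adjusted p = 0.0344), and control line 2 went from 126.8 to 44.4, in the same direction as the CRL1 lines. CYP734A4 encodes an oxidase of the P450 class by which brassinosteroids are inactivated, and rose by 2.09 ± 0.32 (adjusted p = 0.00489), from 30.8, 21.3 and 26.8 to 136.6, 157.7 and 72.7. All 3 lines were raised, line 3 least, and it was the one called of 17 brassinosteroid genes (5.88%, beside 1.34% of all genes). CYP707A5, an enzyme that breaks down abscisic acid, rose by 1.46 ± 0.29 (adjusted p = 0.0225), the one called of 19 abscisic acid genes (5.26%, beside 1.34%). The control lines were at 0.84 ± 0.35 for CYP707A5, which was not called. Neither the 14 ethylene and ERF genes nor the 16 gibberellin genes held a called member.

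Of the cell wall genes 4 of 39 were called higher, where 1.34% of all genes tested were. None was called lower, and the median was 0.13. The glucanase gene GLU8 went from 289.0, 279.8 and 427.2 to 1355.5, 1084.3 and 1256.7, well clear of mock in every line. GLU8 changed by 1.91 ± 0.14 (adjusted p = 2.51e-05), and its responses in CRL1 and control lines differed by 1.45 ± 0.22 (adjusted p = 0.0581), which did not pass. IMCEL2 rose by 1.92 ± 0.3 (adjusted p = 0.00512), and its second probe set was at 0.5 ± 0.5 and uncalled. The beta-expansin genes, whose products loosen cell walls, gave 0.99 ± 0.13 for EXPB6 and 0.91 ± 0.16 for EXPB17 (adjusted p = 0.00131 and 0.0119). EXPB6 was bright throughout, at 1459.7, 1748.1 and 1493.3 in mock and 3158.9, 2735.3 and 3472.4 after dexamethasone. None of 25 cellulose synthase and synthase-like genes was called.

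Of the calcium signalling genes 4 of 69, or 5.8%, were called higher, beside 1.34% of all genes tested. None was called lower, and the median was 0.02. CBL4, a calcineurin B-like calcium sensor whose Arabidopsis counterpart acts in salt tolerance, went from 13.9, 22.8 and 12.4 to 130.7, 159.9 and 78.4. Each line was raised severalfold and no signals overlapped. The change of CBL4 was 2.77 ± 0.28 (adjusted p = 0.000289), with 0.13 ± 0.34 in the control lines and a difference of 2.64 ± 0.44 (adjusted p = 0.0679). The kinase genes CIPK12 and CPK7 rose by 1.05 ± 0.21 and 0.65 ± 0.1, and the calmodulin-like gene CML10 by 0.87 ± 0.16. The second probe set of CIPK12 was at 0.71 ± 0.31 and was not called.

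Other named genes rose without sharing a list. SDS, a cyclin-like gene known from meiosis, was dim in mock at 2.0, 1.0 and 0.8 and gave 17.0, 53.4 and 14.5 after dexamethasone. Its change of 3.13 ± 0.51 (adjusted p = 0.00689) was 4.34 with no offset and 1.48 with the median signal as offset, and its second probe set was at 0.63 ± 0.42 and not called. HMG1, from 7.5, 7.4 and 9.9 to 82.2, 101.2 and 22.8, changed by 2.59 ± 0.38, with line 3 well below the others. GDH2, a glutamate dehydrogenase gene, changed by 1.52 ± 0.24, and 2 of its 3 probe sets were called. SK3, a shikimate kinase gene, and TDC2, a tryptophan decarboxylase gene, changed by 1.5 ± 0.27 and 1.49 ± 0.21. TDC2 kept the lines close, at 94.0, 69.2 and 86.7 in mock and 223.3, 234.8 and 246.7 after dexamethasone. Among 38 heat shock genes 3 were called higher (7.89%, beside 1.34% of all genes) and none lower. HSP26.2 was at 1.25 ± 0.22, HSP18.8 at 1.16 ± 0.18 and HSF04 as given above.

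The lists of division genes, which did not include SDS, held no call at 4 h. None of 34 genes of DNA replication and histones and none of 44 cyclins and cell cycle kinases passed, with medians of -0.04 and -0.03. At 8 h, 7 of the 34 were called higher and none lower, where 7.07% and 7.43% of all genes tested were. Of the 44, 5 were called higher and 4 lower at 8 h. The 7 circadian clock genes held no call at 4 h either.

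Several large rises were found in genes known only by LOC numbers. LOC4330584 was near zero in mock, at 2.4, 0.7 and 0.4, and reached 2029.5, 1054.8 and 25.8 after dexamethasone. Lines 1 and 2 became bright, whereas line 3 rose only to a low signal. The change was 7.15 ± 0.93 (adjusted p = 0.00147), or 5.06 with the median signal as offset, and line by line it was 8.95, 8.78 and 3.71. A second probe set of LOC4330584 was also called, at 4.66 ± 0.71, with changes of 6.56, 5.99 and 1.44. The control lines went from 4.2 and 14.2 to 1.7 and 2.5, and the responses differed by 8.51 ± 1.48 (adjusted p = 0.0689), which did not pass.

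LOC4336656 and LOC4325085 showed the same order of lines. LOC4336656 went from 11.2, 3.8 and 1.6 to 476.3, 122.8 and 25.0, a change of 4.24 ± 0.55 (adjusted p = 0.00133). LOC4325085 went from 1.6, 1.5 and 7.3 to 194.0, 87.3 and 12.9, a change of 3.8 ± 0.74 (adjusted p = 0.0213). In line 3 that was a change of 0.7, where line 1 had 5.89. The call of LOC4325085 was lost with no offset (adjusted p = 0.0723), and a second, brighter probe set of that gene was at -0.25 ± 0.13 and not called.

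LOC4324857 ran in the other order, with the largest change in line 3. It went from 168.3, 88.7 and 41.6 to 1369.6, 1335.8 and 1469.4, so the 3 lines reached nearly 1 level from unequal mock signals. The change was 4.00 ± 0.42 (adjusted p = 0.000289). The gene was also higher after dexamethasone in the control lines, from 218.0 to 1207.4 in line 1 and from 96.7 to 243.6 in line 2, and that mean of 1.89 ± 0.51 was not called there. LOC4330827 (4.19 ± 0.56) rose to 207.1, 173.6 and 204.7 in the CRL1 lines, and control line 2 went from 6.0 to 63.3. LOC4334119 (4.15 ± 0.46) had its smallest change in line 3, at 2.56, and the control lines were at 1.27 ± 0.56. The probe set Os.51413.1.S1_at, with no listed gene, changed by 4.37 ± 0.59 (adjusted p = 0.00197), from 6.6, 2.1 and 4.3 to 149.9, 121.8 and 86.8.

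**Figure D4:**
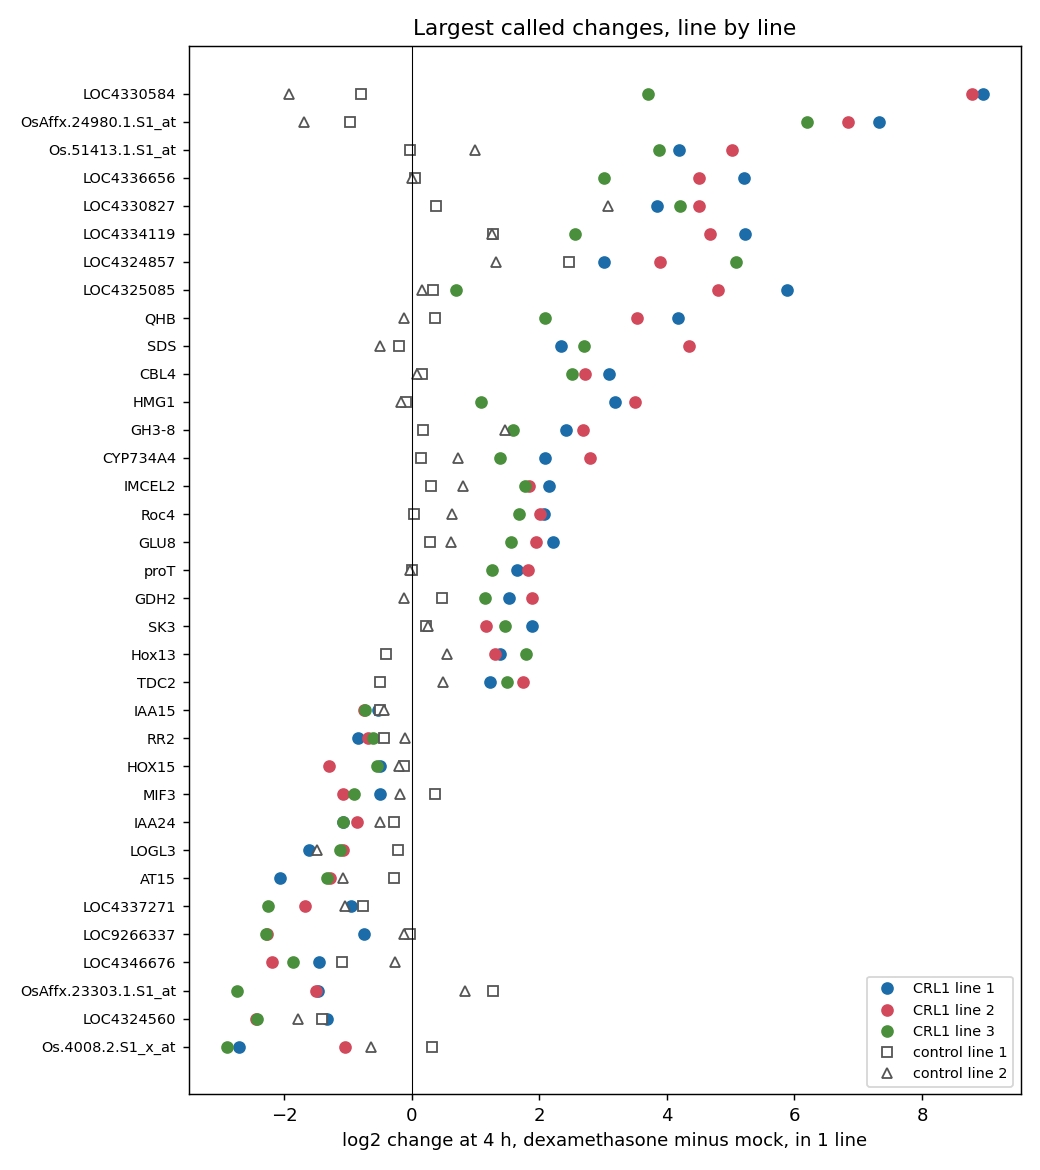
Log2 change at 4 h in each CRL1 line (filled) and each control line (open) for the 22 largest rises and 13 largest falls chosen by a rule on size. Line 3 lies lowest for LOC4330584, LOC4325085 and HMG1 and highest for LOC4324857. Control changes reach into the range of the CRL1 lines for LOC4324560, LOC4337271 and LOGL3. They come close to that range for further rises and falls, among them LOC4324857, GH3-8, IAA15, AT15 and RR2.

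Falls were also found in genes with LOC numbers or no listed gene. LOC4324560 went from 29.8, 88.0 and 49.1 to 10.9, 14.8 and 7.8 and fell by 2.06 ± 0.29 (adjusted p = 0.0028). The control lines went from 121.7 and 64.1 to 45.0 and 17.5, at -1.59 ± 0.36, and the 2 responses differed by -0.47 ± 0.46 (adjusted p = 1). Control and CRL1 lines thus went the same way for this gene. LOC4346676, LOC9266337 and LOC4337271 fell by 1.83 ± 0.33, 1.76 ± 0.31 and 1.62 ± 0.27. Both control lines were also lower for LOC4346676 and LOC4337271, at -0.68 ± 0.4 and -0.9 ± 0.33, uncalled there. For LOC9266337 the control lines were at -0.07 ± 0.37. A second probe set of LOC4346676 was at -1.3 ± 0.31 and not called (adjusted p = 0.0659). In LOC9266337 the line 1 dexamethasone signal of 23.9 lay above the line 3 mock signal of 22.2. Os.4008.2.S1_x_at and OsAffx.23303.1.S1_at fell by 2.22 ± 0.46 and 1.9 ± 0.42 from mock signals of at most 28.1 and 13.6. They were at -0.49 ± 0.46 and 0.06 ± 0.42 at 8 h, uncalled.

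Among named genes AT15 fell by 1.55 ± 0.32 (adjusted p = 0.0282), from 162.3, 144.7 and 154.6 to 37.7, 58.5 and 60.8. MIF3, of the mini zinc finger genes, fell by 0.83 ± 0.17, and HOX15, of the class II homeodomain leucine zipper group, by 0.77 ± 0.16 (adjusted p = 0.0338 and 0.028). With IAA24, IAA15, LOGL3 and RR2 these were all 7 named genes called lower. The control lines were at -0.68 ± 0.39 for AT15, 0.09 ± 0.21 for MIF3 and -0.16 ± 0.19 for HOX15, uncalled in each case. Without the line block 7 of the 58 and none of the 13 largest were called, and none of the 13 was called in all 3 fits that each left out 1 CRL1 line.

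Of the 22 largest rises, 19 were also called without the line block, all but SDS, GDH2 and LOC4336656 (adjusted p = 0.0535, 0.534 and 0.0986). With only the 6 arrays compared, SDS, HMG1 and LOC4325085 lost the call (adjusted p = 0.0556, 0.0794 and 0.164). The count of all rises was 136 without the block, every one of them among the 296. Whichever CRL1 line was left out, 9 of the 22 were called: QHB, CBL4, GLU8, proT, Hox13, LOC4336656, LOC4334119, LOC4324857 and OsAffx.24980.1.S1_at. The other 13 lost the call without line 1 or line 2, and none lost it without line 3. A further 14 named calls were checked in the same way, LOC4339571 not among them. Of these 14, 4 were called without the block, LOC4332560, EXPB6, C3H50 and HSP18.8. LOC4332560 alone of the 14 was called whichever CRL1 line was left out. Probe sets whose names end in _s_at or _x_at can detect more than 1 transcript. That touches LOC4330584, SK3, HOX15, HSP18.8, HSP26.2, IAA23 and Os.4008.2.S1_x_at, and further probe sets of GDH2, SDS and LOC4346676.

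Root tissue markers are given here because the ranges of their summed signal parted between the treatments in the CRL1 lines, which was not tested. None of the 11 measured root markers was called, but their median change was 0.74, against 0.22 in the control lines. Of the 11, 8 were positive, as 7595 of all 16517 genes tested were. The sum ran from 564 to 1220 in the mock arrays of the CRL1 lines and from 1260 to 1620 after dexamethasone, so the groups narrowly did not overlap. In the control lines it ran from 1299 to 1339 in mock, inside the range of the CRL1 lines after dexamethasone, and from 1157 to 1600 after dexamethasone. At 8 h the sum was 547 to 1100 in mock and 966 to 1052 after dexamethasone in the CRL1 lines, and the median change was -0.08. The nicotianamine synthase genes NAS1 and NAS2 led in line 2, with changes of 3.09 and 3.48, and no marker was at 0. In bulk tissue a change in the number of cells of a type and a change in RNA per cell cannot be told apart, and the part of the root markers in the results above was not tested.

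Markers of leaf, shoot meristem and vascular tissue overlapped between treatments. The 8 leaf markers summed to 17200 to 20100 in mock and 15200 to 21000 after dexamethasone, and the 6 shoot meristem markers to 1540 to 1670 and 1410 to 1600. Neither list held a call. Of 15 genes on the vascular list 1 was called higher, 4CLL4, at 0.82 ± 0.18 (adjusted p = 0.0406). It is a 4-coumarate-CoA ligase-like gene that the symbol 4CL took into the list. The sums of the 15, at 7070 to 8600 and 7230 to 9270, overlapped.

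At 8 h most of the early response was still present. Of the 296 early rises 266 were called higher at 8 h, when 5.29% of all tested probe sets were, and of the 58 early falls 45 were called lower, when 5.8% were. None was called the other way. Both times share 1 estimate of the spread per probe set, so the 266 and 45 are not like for like with the shares over all tested. The 296 had a median change of 1.63 at 8 h, and 194 of them were further from mock than at 4 h. The 58 had a median of -1.01 at 8 h, and 28 of them were further from mock. Matching shares over all tested probe sets were not counted. The test of the difference between the 8 h and 4 h responses called 47 probe sets higher (0.143%) and 11 lower (0.0335%). Among the 296, 11 had a larger change at 8 h by that test and none a smaller one, and none of the 58 differed.

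Genes with a larger change at 8 h included 3 that the naming rule had reached. LOC4334119 went from a change of 4.15 to 7.74 ± 0.46 (difference 3.58 ± 0.65, adjusted p = 0.0472). LOC4339571, which had gone from 5.9, 5.1 and 3.9 to 64.9, 70.3 and 19.4 at 4 h, went from 2.82 ± 0.35 to 6.54 ± 0.35 (difference 3.72 ± 0.49, adjusted p = 0.0157). For MYBS2, a MYB factor known from the sugar response of alpha-amylase genes, the change went from 0.54 to 2.07 ± 0.11 (difference 1.53 ± 0.15, adjusted p = 0.000843). CBL4, GDH2 and CYP734A4 were at 4.23 ± 0.28, 3.27 ± 0.24 and 3.98 ± 0.32 at 8 h, but their differences did not pass (adjusted p = 0.19, 0.0676 and 0.125).

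**Figure D5:**
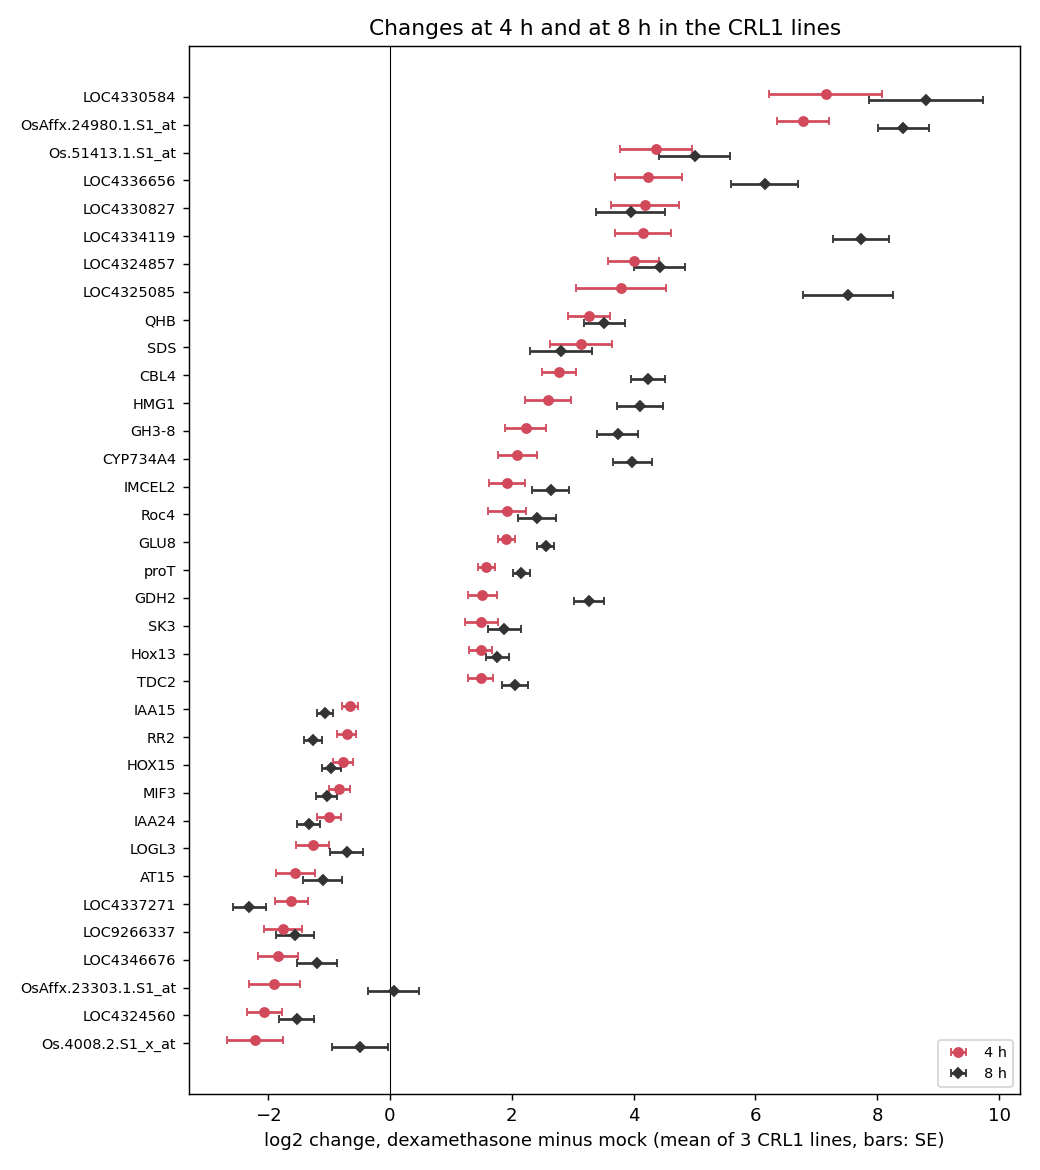
Log2 change (dexamethasone minus mock, mean of 3 CRL1 lines, bars SE) at 4 h and 8 h for the 22 largest rises and 13 largest falls at 4 h. LOC4334119 moves from 4.15 to 7.74, QHB stays near 3.27 to 3.52, and Os.4008.2.S1_x_at and OsAffx.23303.1.S1_at return towards 0.

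Some of the later response was not detected at 4 h. The glucanase gene GLU5 was dim on all 6 arrays at 4 h, between 1.3 and 5.3, with a change of -0.24 ± 0.46, and reached a change of 6.8 ± 0.46 at 8 h (difference 7.04 ± 0.65, adjusted p = 0.000593). LOC4328901 (-0.09 ± 0.5 at 4 h) and LOC4347453 (0.74 ± 0.39) were at 4.46 ± 0.5 and 4.34 ± 0.39 at 8 h. Both had overlapping groups at 4 h. The gibberellin 20-oxidase gene GA20OX3 was at 0.24 ± 0.13 and then 1.33 ± 0.13 (difference 1.09 ± 0.19, adjusted p = 0.0406). The bHLH gene bHLH080 was at -0.14 ± 0.14 and then -1.44 ± 0.14 (difference -1.31 ± 0.2, adjusted p = 0.0235).

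The calls for these differences between 8 h and 4 h rested on few lines. For LOC4334119 the adjusted p was 0.166 without the line block, 0.0631 with no offset, 0.0545 with no filter, 0.0503 with the stricter one, 0.0866 with only the 12 arrays of the CRL1 lines and 0.0874 to 0.363 when 1 line was left out. LOC4339571 was not called without the block (adjusted p = 0.333), with a random block (0.0569), with the stricter filter (0.0556) or without any 1 CRL1 line (0.0873 to 0.112). MYBS2 lost the call without CRL1 line 3 (adjusted p = 0.0873), and GLU5 without CRL1 line 2 or 3 (0.0845 and 0.0526) and with the stricter filter (0.0638). For GA20OX3, bHLH080, LOC4328901 and LOC4347453 the adjusted p was 0.125, 0.583, 0.155 and 0.362 without the block. None of these 4 was called when any 1 line was left out.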

How the data were processed

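Transcript levels were measured on 20 Affymetrix rice arrays. The authors deposited linear intensity values, MAS5 signals from Affymetrix Expression Console, as the submitters' processing notes name them. Versions, and the build behind the probe sets, are not given in the sources used here. The 2% trimmed mean of every array was 100.0, so the arrays had been scaled before deposit. Of 57381 probe sets, 123 array controls were left out. The platform annotation, updated through RefSeq (assembly ASM3414082v1) by gene number, gave 1 gene for 22436, several for 95 and none for 34727.

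Values were log2(signal + 1.7), the offset being the 20th percentile of all signals. Testing was limited to probe sets brighter than their array's median on 3 or more arrays. The fit (limma 3.58.1, R 4.3.3) used all 20 arrays with line as a fixed block, treatment and time within each kind of line, a trended empirical Bayes variance and 9 residual degrees of freedom, with Benjamini-Hochberg adjustment at 0.05 over all 32836. It was tested on simulated data. The 3 CRL1 lines are replicates, with 1 array per line, treatment and time, and all groups share 1 estimate of the spread. The 2 control lines were averaged although only control line 2 carried the plasmid, so neither kind of control had a replicate line.

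Pairing follows the labels, since mock and dexamethasone plants were of the same transgenic line. Same-line deviations from group means at 4 h correlated at 0.02, 0.13 and 0.11 in CRL1 lines 1, 2 and 3, and at 0.51 in both control lines, where 2 lines mirror each other by construction.

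The comparison, the gene lists and the naming rule were chosen with earlier results of these data known. Lists are symbol patterns, whose false matches were removed after the files were seen and before the fits were run. Named genes had to be called, to move the same way in all 3 lines, to have a mean signal in the higher group above the mean array median, and to come from a probe set with 1 gene (or none, for probe sets printed by their own name). The largest 14 rises and 8 falls of named genes (7 met the rule), 6 and 4 of LOC genes and 2 and 2 of probe sets without a gene were taken, with all crown root regulators, up to 4 members of each other list, and up to 5 in each direction for the differences between responses. In lists a gene was represented by 1 probe set. Alternatives were other offsets and filters, quantile normalization, no block or a random one, fewer arrays, array weights and leaving out each line. Promoter motifs were not analysed here. Plots used Python 3.11.15 and matplotlib 3.10.9.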

Additional observations from a re-analysis of the deposited data

Results flagged for a closer look

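Responses that differed between groups by a test of the difference itself are listed here with their log2 values. Between CRL1 and control lines at 4 h these were the probe set OsAffx.24980.1.S1_at (8.11), LOC4332560 (2.33) and proT (1.6).

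Between 8 h and 4 h in the CRL1 lines, the response was larger at 8 h for GLU5 (7.04), LOC4328901 (4.55), LOC4339571 (3.72), LOC4347453 (3.59), LOC4334119 (3.58), MYBS2 (1.53) and GA20OX3 (1.09). It was lower at 8 h for LOC4330226 (-1.46), bHLH080 (-1.31), LOC4337028 (-1.28), LOC4349331 (-1.28) and LOC4330089 (-1.27). Of these 12, GLU5 and MYBS2 passed the test with no replicate block (adjusted p = 0.000214 and 0.00278).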

How the results depend on the processing

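The count of rises (296) was within 1.5 times under other offsets and filters, quantile normalization, a random replicate block and fits on fewer arrays. The probe sets called were not always the same ones. With only the 6 arrays compared, 221 rises and 70 falls were called, among them 181 of the 296 and 25 of the 58. With only the 12 arrays of the CRL1 lines, 234 of the 296 and 27 of the 58 were called. It was 136 with no replicate block and 497 with array weights. The count of falls (58) was 7 with no replicate block and 191 with array weights. Leaving out each line in turn gave 77 to 249 rises and 3 to 46 falls, lowest without CRL1 line 2 for both. Of the 296 rises 80, 76 and 169 were called without CRL1 line 1, 2 and 3, and 44 in all 3 cases; of the 58 falls these were 11, 3 and 15, with 1 in all 3 cases. All 22 largest rises were called without CRL1 line 3 and without either control line. Fewer samples alone lower such counts. Control lines had 6 calls when their 4 arrays were fitted alone, and 0 to 2 with a line left out.

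The 3 calls for the difference between CRL1 and control responses became 6 with the median offset, 5 with the stricter filter, 9 with a random replicate block and 28 with array weights, and 1 to 20 with a line left out. The 58 calls for the 8 h against 4 h difference became 37 with no filter, 2 with no replicate block, 32 with a random replicate block and 12 with only the 12 arrays of the CRL1 lines, and 0 to 12 with a line left out. None of the 22 largest rises and 13 largest falls changed sign under these alternatives. The causes were not tested. Few arrays limit all of these counts, and dim transcripts have changes set largely by the offset.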
